A study of Saccharomyces cerevisiae with 6 samples.

Results

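The response of budding yeast (Saccharomyces cerevisiae) lacking SNQ2 to the compound 089 was measured on 2 two-channel arrays, out of 6 arrays in the series. They were chosen by their titles, which name the snq2 deletion strain treated with 089 against the same strain untreated. The snq2 deletion strain, BY4742dsnq2, carries snq2::kanMX, and the erg6 deletion strain, BY4742derg6, carries erg6::kanMX4. The parental strain BY4742 has neither, and all 3 are haploids of mating type alpha (MATα) with his3, leu2, lys2 and ura3 mutations. Each strain has 2 arrays that the series text calls biological replicates. Treated cells received 089 at 0.2 mM for 4 h in rich glucose medium (YPD) with shaking, at high density. For all arrays the medium held 2% glucose at pH 4.8, and the temperature was 28 °C. The labels name 089 as an ethylamide of a bicyclic oxo dioxa-aza-octane carboxylic acid that carries a benzhydryl and a phenyl group. On every array the cDNA of treated cells carried Cy5 and that of untreated cells of the same strain carried Cy3, without a dye swap, so a gene-specific dye effect stays in each response. The deposited values were read as log2 ratios of treated over untreated cells. Base and direction are likely but not stated, and every sign below would turn with the direction. A ratio gives no level, and in a bulk culture fewer cells of a kind cannot be told apart from less RNA per cell.

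Snq2, a plasma membrane protein of the ATP-binding cassette (ABC) family, pumps many unrelated chemicals out of the cell, and its gene belongs to the pleiotropic drug resistance network of the transcription factors Pdr1, Pdr3 and Yrr1. Yeast cells with glucose devote much of their transcription to making ribosomes and proteins. When growth slows or glucose runs out, they turn to stored carbohydrate, respiration, the use of acetate and fatty acids, and genes for stress defence driven by Msn2 and Msn4.

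In snq2 deletion cells treated with 089, most genes for ribosome assembly, translation, purine synthesis and Hsp70 chaperones fell relative to untreated cells of that strain, and genes for amino acid and cell wall glucan synthesis fell more often than they rose. Most genes for the glyoxylate cycle, fatty acid oxidation, glycogen, vacuolar proteolysis, general stress defence and stationary phase rose. Tested against a 1.5-fold minimum, fewer passed. Rises were then 2 of 15 glycogen, 3 of 14 vacuolar, 6 of 21 fatty acid oxidation, 8 of 24 stationary phase and 13 of 34 stress genes. Falls were then 17 of 49 small and 17 of 54 large subunit assembly genes, 10 of 36 translation factors and 4 of 18 purine genes. In parental cells the median of the stress, glycogen, glyoxylate and nuclear respiratory lists lay below 0, on the other side from snq2 deletion cells. In erg6 deletion cells the medians of these lists lay above 0, as in snq2 deletion cells, at 0.505, 0.364, 0.965 and 0.975.

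The 2 snq2 deletion arrays correlated at r = 0.916 over 6362 genes, a description since genes do not replicate each other, and their values for a gene differed by a median of 0.166 on the log2 scale. Of 982 genes with a mean past 2-fold, 980 had both arrays on one side of 0. A moderated linear model (limma) with 1 mean per strain, fitted to all 6 arrays and adjusted over all 6362 genes, put 3276 genes past an adjusted p of 0.05. Of these, 1612 were higher (25.3% of all genes) and 1664 were lower (26.2%), and 3693 had an unadjusted p under 0.05. At least 2-fold changes past the threshold numbered 337 higher genes (5.3%) and 603 lower genes (9.48%), and the median of all genes was -0.03. The arrays also hold 683 control features, 539 named empty and the rest named Blank. Of these, 32.3% of the empty and 71.5% of the Blank features passed the same test, with medians of 0.55 and -0.22. Passing it therefore does not by itself show a change in a transcript. What the Blank features hold is not known here, and some repeat each other's values on both arrays. Their share is thus not a rate of passing without signal. The middle 95% of the control features spanned -1.43 to 2.00. This span pools both kinds of feature and does not measure the error of a gene's ratio. Lying inside it does not show that a change is absent, nor lying beyond it that a change is real. Genes past the test beyond that span numbered 25 above it (0.393%) and 308 below it (4.84%). Of those above it, the stationary phase list held 7, the stress list 3, the glyoxylate list 2 and the fatty acid oxidation list 1. The glycogen, vacuolar protease, tricarboxylic acid cycle and nuclear respiratory lists held 0, so their rises lay within the span of the control features. Below it lay 13 genes of each ribosome assembly list, 7 translation factors and 3 cytosolic ribosomal protein genes. Against a 1.5-fold minimum 857 genes passed, and 66 of the 74 list counts of 4 or more given below changed by over 1.5 times. Rose and fell are used below for genes past an adjusted p of 0.05, every error is the standard error of the fitted mean with n = 2 arrays, and counts are read against the shares given here. Values joined by "and" for a strain are its first and second array.

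**Figure D1:**
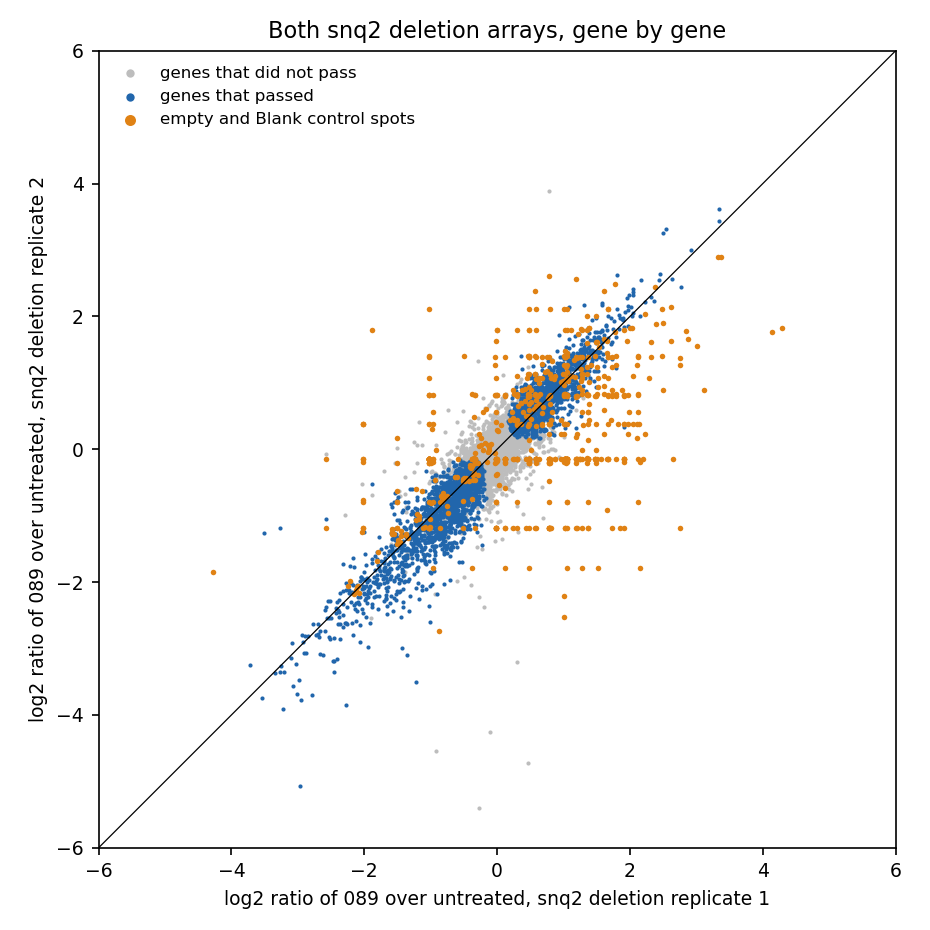
Log2 ratio of treated over untreated snq2 deletion cells on the second array (vertical) against the first (horizontal), 1 point for each of 6362 genes. Genes that passed and genes that did not differ in colour, and empty and Blank features together share another colour. The gene cloud follows the diagonal (r = 0.916), and the empty features sit higher on the first array (median 0.80) than on the second (median 0.23).

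Most ribosome assembly genes fell. Of 49 genes for the small subunit processome and small nucleolar ribonucleoproteins (snoRNPs), 34 fell, 2 rose and 13 did not pass, and 20 fell at least 2-fold. The list's median was -0.83, against -0.03 for all genes. SNU13, a protein of the box C/D snoRNPs and of the spliceosome, had -2.94 and -2.79, a mean of -2.87 ± 0.10 (adjusted p = 0.000144). NAN1, a subunit of the processome that also acts in ribosomal DNA transcription, had -2.59 and -2.74 (-2.67 ± 0.16), and NOP1, the snoRNP methyltransferase, had -1.94 and -2.22 (-2.08 ± 0.13). Both arrays were low for each of these 3 genes. Of 54 large subunit assembly factors, 34 fell and 1 rose. NOG1 and NOG2, nucleolar GTPases needed to mature and export the large subunit, had -3.07 and -3.56, and -2.46 and -2.84. NIP7, which acts in large subunit maturation, had -2.48 and -3.19 (-2.83 ± 0.17). Without the second snq2 deletion array 26 small subunit and 21 large subunit genes fell, and without the first 33 and 34 did.

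The machinery that transcribes ribosomal RNA fell in part. Of 13 genes for RNA polymerase I and its factors, 7 fell and 1 rose. RPA190, the largest subunit, had -1.77 and -2.21 (-1.99 ± 0.12), RPA34 had -2.54 and -2.83 (-2.68 ± 0.13) and RPA49 had -1.95 and -2.97 (-2.46 ± 0.29). The initiation factor RRN3 had -0.29 and -0.24 (-0.26 ± 0.09, adjusted p = 0.0566) and did not pass. Among 13 genes for RNA polymerase III and the subunits it shares with polymerase I, 5 fell and 1 rose. The shared subunits RPC40 (-2.44 ± 0.12) and RPC19 (-1.50 ± 0.11) fell further than RPO31, the largest polymerase III subunit, at -1.20 ± 0.10. The other 7 polymerase III genes did not pass.

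Cytosolic ribosomal proteins fell by less. Of 136 genes, 72 fell, 7 rose and 57 did not pass, but only 9 fell at least 2-fold and the list's median was -0.34. RPS28B had -1.92 and -2.17 (-2.04 ± 0.15), RPS25A had -2.22 and -1.75 (-1.99 ± 0.13) and RPL27A had -1.07 and -1.06 (-1.07 ± 0.08). Many ribosomal proteins are encoded by 2 near-identical copies, whose signals on the array may mix. The count of falls was 37 without the first and 37 without the second snq2 deletion array, and that of rises 4 and 2. Of 36 translation factors, 25 fell and 1 rose, with a median of -0.73. DED1, a helicase that helps ribosomes scan messages, had -3.03 and -3.23 (-3.13 ± 0.10). YEF3, the fungal elongation factor that frees the ribosome's exit site, had -2.62 and -3.10 (-2.86 ± 0.14), and PAB1, the poly(A) binding protein, had -1.64 and -1.85 (-1.75 ± 0.11). TIF1 and TIF2, which encode the same initiation factor eIF4A and whose signals may mix, had means of -1.92 and -2.02. The translation factor falls numbered 18 without the first and 14 without the second snq2 deletion array. Of 19 cytosolic tRNA synthetases, 11 fell and 2 rose, among them FRS1, a subunit of the phenylalanine enzyme, at -1.72 and -1.95. Falls of synthetases numbered 8 and 6 without the first and the second array.

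Mitochondrial ribosomal proteins rose more often than they fell, with 25 of 72 higher, 6 lower and a median of 0.16. MRPL20 had 1.31 and 1.24 (1.28 ± 0.08) and MRPL28 had 1.14 and 1.56 (1.35 ± 0.12). At least 2-fold rises numbered 3, and 17 and 11 genes rose without the first and the second array. The falls did not hold without the first array and numbered 1 without the second.

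Biosynthetic genes fell more often than they rose, with exceptions in each pathway. Of 52 amino acid biosynthesis genes controlled by Gcn4, the activator of the amino acid starvation response, 25 fell and 12 rose. The lowest was GLY1, threonine aldolase, at -3.25 and -3.27 (-3.26 ± 0.09, adjusted p = 0.000113). Of the branched-chain pathway, some genes fell and others rose. ILV5, acetohydroxyacid reductoisomerase, had -2.52 and -2.54, LEU1, isopropylmalate isomerase, had -2.32 and -2.68, and BAT1, the mitochondrial branched-chain aminotransferase, had -2.14 and -2.40. LEU9, the minor isopropylmalate synthase, rose on both arrays (1.13 and 1.12). Without the first and the second array the rises numbered 5 and 6. In the sulfur pathway 11 of 31 genes fell and 7 rose. SAM1, an S-adenosylmethionine synthetase, had -3.09 and -2.92 (-3.01 ± 0.09) and MET6, methionine synthase, had -1.94 and -1.97 (-1.95 ± 0.18). SAM1 has a close paralog, so its signal may not be its own alone. Falls numbered 9 and 7 and rises 3 and 3 without the first and the second array.

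Purine synthesis had 11 of 18 genes lower and 1 higher. BAS1, the activator of the pathway, had -2.09 and -2.30 (-2.20 ± 0.25), and SHM2, which supplies one-carbon units, had -1.27 and -1.53 (-1.40 ± 0.10). ADE1, another enzyme of the pathway, rose, with 1.08 and 1.25 (1.17 ± 0.12). Falls numbered 10 and 7 without the first and the second array. In pyrimidine synthesis 6 of 11 genes fell and 4 rose. Without the first array 4 fell, and the falls did not hold without the second. PPR1, the activator of the pathway, had -1.12 and -2.06 (-1.59 ± 0.28) and is one of these.

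Genes that let cells grow on acetate and ethanol mostly rose. Of 25 genes of the glyoxylate cycle and gluconeogenesis, 17 rose and 3 fell, 13 rose at least 2-fold, and the list's median was 1.10. ICL1 and MLS1 are isocitrate lyase and malate synthase, the enzymes particular to the glyoxylate cycle. ICL1 had 1.83 and 1.81 (1.82 ± 0.12, adjusted p = 0.000319) and MLS1 had 1.78 and 1.70 (1.74 ± 0.11). Parental cells had -1.03 and -0.57 for ICL1 and -1.41 and -1.06 for MLS1, so the arrays of the strains lay on opposite sides of 0. ADY2, the acetate transporter, had 2.31 and 2.30 (2.31 ± 0.10), ALD4, the mitochondrial aldehyde dehydrogenase that makes acetate, had 1.47 and 1.77 (1.62 ± 0.11), and ADH2, the alcohol dehydrogenase that consumes ethanol, had 1.81 and 2.63 (2.22 ± 0.19). FBP1, fructose-1,6-bisphosphatase of gluconeogenesis, had 1.26 and 1.49 (1.38 ± 0.10). The mitochondrial malic enzyme gene MAE1 was 1 of the 3 that fell, at -3.01 and -3.68 (-3.35 ± 0.18), among the 20 lowest genes of the response.

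Fatty acid oxidation in peroxisomes, with the carnitine shuttle that moves acetyl units to mitochondria, had 16 of 21 genes higher and 1 lower. CTA1, the peroxisomal catalase, had 2.05 on each array (2.05 ± 0.13), CAT2, carnitine acetyltransferase, had 1.59 and 2.17 (1.88 ± 0.15), and POX1, the acyl-CoA oxidase that starts the pathway, had 1.14 and 1.36 (1.25 ± 0.13). Rises numbered 14 without the first array and 8 without the second. Of 20 tricarboxylic acid cycle genes, 12 rose and 1 fell. LSC2, a subunit of succinyl-CoA ligase, had 1.56 and 1.65 (1.61 ± 0.12), the citrate synthase CIT3 had 1.48 and 1.45 (1.46 ± 0.09) and fumarase FUM1 had 1.41 and 1.30 (1.35 ± 0.09). The fall was IDH2, a subunit of isocitrate dehydrogenase, at -1.46 and -1.48 (-1.47 ± 0.09), which parental cells shared with -1.38 and -1.44. Rises numbered 9 and 7 without the first and the second array.

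Of 39 nuclear genes for the respiratory chain and ATP synthase, 19 rose and 6 fell, with a median of 0.34. SDH3, a membrane subunit of succinate dehydrogenase, had 1.37 and 1.45 (1.41 ± 0.09), and COX7, a subunit of cytochrome oxidase, had 1.14 and 1.21 (1.17 ± 0.08). ATP14, a subunit of the ATP synthase, fell, with -1.30 and -1.41 (-1.36 ± 0.08). Rises numbered 13 and 14 and falls 3 and 2 without the first and the second array. HAP4, the regulatory subunit of the activator of respiratory genes, had 0.12 and 0.08 (0.10 ± 0.13, adjusted p = 0.553) and did not pass, against -2.35 and -2.02 in parental cells, and this difference passed (adjusted p = 0.00108). Of 27 genes encoded in the mitochondrial genome, 13 rose and 4 fell. ATP8, a subunit of the ATP synthase, had 1.39 and 1.75 and COX1, a subunit of cytochrome oxidase, had 1.37 and 1.82. The gene OLI1, for another ATP synthase subunit, fell to -1.53 and -1.36, and the cytochrome b intron reading frame BI3 to -1.96 and -2.00. Features for introns and exons of 1 mitochondrial gene overlap, so they are not separate measurements of transcripts. Without the second array 8 mitochondrial genes rose.

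Glycolysis split. Of 26 genes for glycolysis and fermentation, 11 rose and 9 fell, and 4 and 6 rose without the first and the second array. The subunits of phosphofructokinase, PFK1 (-1.63 and -1.54) and PFK2 (-1.66 and -2.00), fell, as did the pyruvate decarboxylase genes PDC1 (-1.52 on each array) and PDC5 (-2.36 and -2.16). HXK2, the hexokinase that is also a glucose signalling protein, had -0.95 and -1.01 (-0.98 ± 0.09). GPM2, a homolog of phosphoglycerate mutase, was higher at 1.05 and 1.38. Of 26 hexose transporters and glucose sensors, 10 fell and 5 rose. HXT1, a low-affinity glucose transporter, had -1.20 and -1.61 (-1.41 ± 0.13), and the high-affinity transporters HXT6 and HXT7, whose genes are near identical, had means of -1.11 and -1.29. Falls numbered 7 and 6 without the first and the second array. Of 19 genes for other sugars and glycerol, 9 rose and 1 fell, among them GUT1, glycerol kinase (1.38 ± 0.10), and GUT2, the mitochondrial glycerol phosphate dehydrogenase (1.04 ± 0.09).

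Glycerol synthesis, the response to high osmolarity, showed 4 rises and 4 falls among 10 genes. GPD1, the first enzyme, rose by 1.37 ± 0.12, while GPP1 and GPP2, the phosphatases of the second step, had -2.17 and -2.04, and -1.07 and -1.09. GPD2 (-1.26 ± 0.09) and HOG1, the kinase of the osmotic response (-1.98 ± 0.09), also fell. Both arrays lay on one side of 0 for each of these genes.

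**Figure D2:**
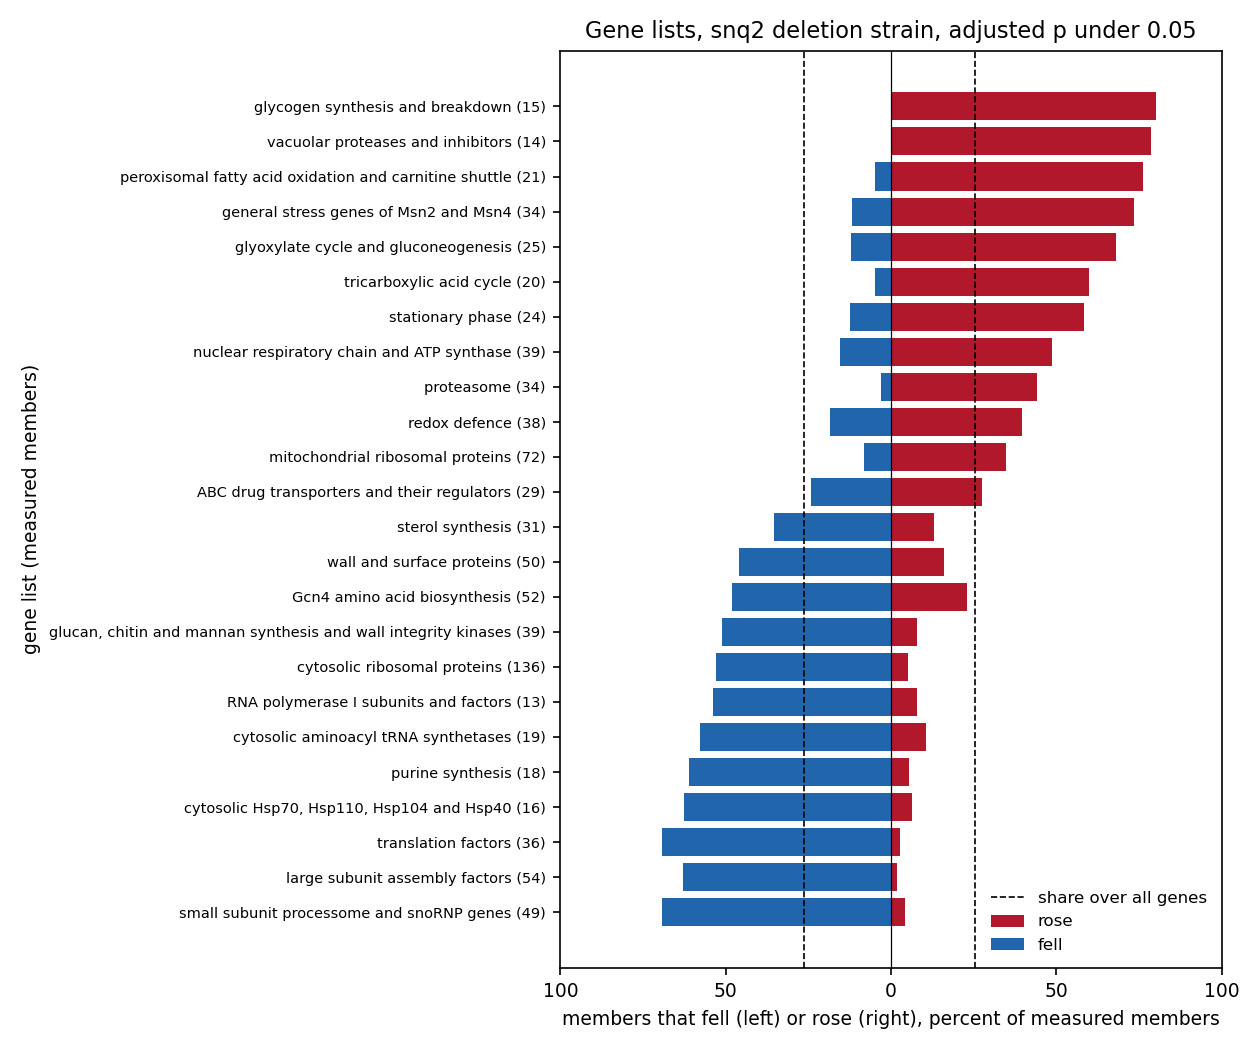
Share of each gene list that rose (right of 0) or fell (left of 0) in snq2 deletion cells treated with 089, in percent of the list's measured genes, with dashed lines at the shares of all 6362 genes (25.3% higher, 26.2% lower). Glycogen, vacuolar protease, fatty acid oxidation, stress and glyoxylate genes lie far to the right, and ribosome assembly, translation factor and Hsp70 genes far to the left.

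General stress genes rose as a group. Of 34 targets and regulators of the Msn2 and Msn4 programme, 25 rose and 4 fell, 12 rose at least 2-fold, and the median was 0.76. TMA10, a small ribosome-associated protein, was the highest annotated gene of the response, with 3.34 and 3.62 (3.48 ± 0.17, adjusted p = 0.000172). HSP12, a small membrane-binding heat shock protein, had 2.04 and 2.42 (2.23 ± 0.14), CTT1, the cytosolic catalase, had 1.45 and 1.69 (1.57 ± 0.10), and RTN2, a reticulon of the endoplasmic reticulum, had 1.57 and 1.78 (1.68 ± 0.09). GAD1, glutamate decarboxylase, had 1.31 and 1.39 (1.35 ± 0.08). Each of these was below 0 on both parental arrays. The gene of the regulator MSN4 itself fell, with -2.42 and -2.46 (-2.44 ± 0.10), as did YGP1, a secreted glycoprotein, with -2.54 and -2.28 (-2.41 ± 0.12). The other falls, named after their values were seen, were MSN2 at -2.05 ± 0.13 and polyubiquitin UBI4 at -1.11 ± 0.09.

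Most glycogen and stationary phase genes rose, and trehalose genes were divided. Of 15 glycogen genes, 12 rose and the other 3 did not pass, with a median of 0.67, and 1 rose at least 2-fold. GIP2, a regulatory subunit of the phosphatase that activates glycogen synthase, had 0.99 and 1.30 (1.14 ± 0.10), and GLC3, the branching enzyme, had 0.87 and 1.03 (0.95 ± 0.10). GPH1, glycogen phosphorylase, had 0.79 and 0.85 (0.82 ± 0.10) and did not pass against a 1.5-fold minimum. Rises numbered 10 without the first and 5 without the second array. Of 7 trehalose genes, 2 rose and 2 fell. TSL1 and TPS1 of the synthase complex had 0.53 ± 0.11 and 0.42 ± 0.10, and neither call held without the second array. NTH1, neutral trehalase, fell to -0.98 and -1.46 (-1.22 ± 0.16). Of 24 stationary phase genes, 14 rose and 3 fell. RGI2 and RGI1, paired regulators of energy metabolism under respiration, had 3.35 and 3.43, and 2.46 and 2.63. SIP18, a desiccation protein, had 2.54 and 3.31 (2.93 ± 0.22), and SPG4, needed for survival in stationary phase, had 1.98 and 2.10 (2.04 ± 0.09). This list held 7 of the 25 genes above the span of the control features. Rises numbered 12 and 9 without the first and the second array.

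Of 14 vacuolar proteases and their inhibitors, 11 rose and the other 3 did not pass. PBI2, an inhibitor of proteinase B, had 1.71 and 1.97 (1.84 ± 0.09), and APE3, aminopeptidase Y, had 1.49 and 1.36 (1.43 ± 0.08). PRB1, proteinase B, had 0.72 and 0.63 (0.67 ± 0.08) and did not pass against a 1.5-fold minimum. Rises numbered 8 and 7 without the first and the second array. Of 34 proteasome genes, 15 rose and 1 fell, with a median of 0.20, and PRE7 had 1.01 and 0.85 (0.93 ± 0.09). Of 39 autophagy genes, 13 rose and 3 fell. With either snq2 deletion array left out 6 rose, and with either erg6 deletion array left out 5 fell. ATG14, a subunit of the Vps34 lipid kinase complex of autophagy, had 1.63 and 1.86 (1.75 ± 0.12), and ATG33, which acts in mitophagy, had 1.20 and 1.30 (1.25 ± 0.09). VPS30, another subunit of that kinase complex, fell to -1.17 and -1.12 (-1.15 ± 0.11), a smaller fall than the -3.42 and -3.53 of parental cells. The proteasome rises numbered 9 with either snq2 deletion array left out.

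Redox defence was mixed, with 15 of 38 genes higher and 7 lower. The glutaredoxins GRX1 (1.51 and 1.48) and GRX2 (1.43 and 1.45) and thioredoxin TRX1 (1.23 and 1.39) rose. OYE2, an NADPH oxidoreductase, fell to -2.00 and -2.16 (-2.08 ± 0.10). Falls numbered 3 and 4 without the first and the second array. Of 19 DNA damage and ribonucleotide reductase genes, 4 rose and 3 fell. RNR4 and RNR2, the small subunits of ribonucleotide reductase, had 1.17 and 1.30, and 0.92 and 1.25, against -1.18 and -1.13, and -0.59 and -0.47, in parental cells. Arrays of the strains lay on opposite sides of 0 for both. Rises numbered 3 and 2 without the first and the second array, and the falls did not hold without the second.

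Chaperones did not follow the general stress genes. Of 16 genes for cytosolic Hsp70, Hsp110, Hsp104 and Hsp40, 10 fell and 1 rose, 9 fell at least 2-fold, and 10 fell with either array of this strain left out. SSE1, the Hsp110 nucleotide exchange factor, had -2.10 and -2.23 (-2.16 ± 0.10), SSA4, the heat-inducible Hsp70, had -2.10 and -2.04 (-2.07 ± 0.10), YDJ1, an Hsp40, had -1.76 and -2.03 (-1.90 ± 0.10) and the disaggregase HSP104 had -1.27 and -1.32 (-1.29 ± 0.08). Members of the SSA family are close in sequence, so their signals may mix. For Hsp90 and its partners 6 of 14 genes fell and 2 rose, led by STI1, which links Hsp70 to Hsp90, at -2.05 and -1.93 (-1.99 ± 0.10). PPT1, an Hsp90 phosphatase, had 0.69 on the first and -1.04 on the second array, so no change is reported. Among 14 small heat shock and mitochondrial chaperones 8 fell and 4 rose, and 5 fell with either array of this strain left out. The aggregation-binding HSP26 rose to 2.03 and 2.01 (2.02 ± 0.10) and the proton pump regulator HSP30 fell to -1.13 and -1.36 (-1.24 ± 0.12). Of 8 subunits of the chaperonin CCT, 2 rose and 2 fell, and 1 did each with either array left out.

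In the endoplasmic reticulum 7 of 20 folding genes fell and 3 rose. KAR2, the Hsp70 of this compartment, had -1.99 and -2.26 (-2.13 ± 0.10), ERO1, which oxidises cysteines in new proteins, had -1.10 and -1.36 (-1.23 ± 0.11), and HAC1, the transcription factor of the unfolded protein response, had -0.90 and -1.04 (-0.97 ± 0.09). HAC1 acts through splicing of its message, which these arrays do not measure. Rises numbered 1 with either array of this strain left out, and falls 11 with either erg6 deletion array left out.

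Cell wall genes held some of the largest falls. Of 39 genes for glucan, chitin and mannan synthesis and the wall integrity kinases, 20 fell and 3 rose, and 14 fell at least 2-fold. FKS1, the main catalytic subunit of glucan synthase, had -3.54 and -3.74 (-3.64 ± 0.10, adjusted p = 0.000113). SLT2, the kinase of the wall integrity pathway, had -2.95 and -3.78 (-3.37 ± 0.21), and RLM1, the transcription factor it activates, had -1.51 and -1.79 (-1.65 ± 0.10). GAS1, which elongates glucan chains, had -2.07 and -2.64 (-2.36 ± 0.14), and SKN1, which acts in glucan branching, had -2.36 and -2.85 (-2.60 ± 0.16). FKS1 and SLT2 were also below 0 in parental cells, at -1.02 and -1.21, and -1.14 and -1.05. Of 50 wall and surface proteins, 23 fell and 8 rose. The list's median was -0.53, close to the -0.52 of parental cells. In the difference between these strains 15 members were higher and 13 lower in snq2 deletion cells. PIR3 and HSP150, covalently linked wall proteins, had -2.84 and -2.81, and -2.77 and -2.62. The mannoprotein TIR1 had -2.68 and -2.82 (-2.75 ± 0.13) and the glucan-chitin crosslinker CRH1 had -2.11 and -2.43 (-2.27 ± 0.10). Falls numbered 15 and 13 for the synthesis genes and 20 and 19 for the proteins without the first and the second array, and rises of the proteins 6 and 2.

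Among plasma membrane pumps and the eisosome, a membrane domain scaffold, 11 of 23 genes fell and 7 rose. PMA1, the proton pump that sets the membrane potential, had -1.49 and -1.89 (-1.69 ± 0.13), and HRK1, a kinase that activates it, had -2.33 on each array (-2.33 ± 0.09). YRO2 and MRH1, related membrane proteins of unclear function, had -3.27 and -3.36, and -2.42 and -3.15. PIL1, the core eisosome protein, rose to 0.98 and 1.06 (1.02 ± 0.10). Rises numbered 3 and 1 without the first and the second array.

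In sterol synthesis 11 of 31 genes fell and 4 rose, and 2 and 1 rose without the first and the second array. ERG3, a desaturase, had -1.78 and -1.80 (-1.79 ± 0.08), against 0.96 and 1.00 in parental cells. ERG4, the last enzyme of the pathway, had -1.86 and -2.13 (-1.99 ± 0.12), the azole target ERG11 had -0.87 and -1.35 (-1.11 ± 0.13) and NCP1, its electron donor, had -2.15 and -1.77 (-1.96 ± 0.13). ERG9, squalene synthase, rose to 0.57 and 0.91 (0.74 ± 0.11), against -2.82 and -2.97 in parental cells, although its rise did not pass against a 1.5-fold minimum. ERG6, whose gene the other deletion strain lacks, had 0.17 and 0.38 (0.27 ± 0.11, adjusted p = 0.0859) and did not pass. Fatty acid and phospholipid genes were divided, with 9 rises and 10 falls among 37. PAH1, the phosphatidate phosphatase that turns lipid synthesis towards storage, had 1.88 and 1.96 (1.92 ± 0.08), and CDS1, which competes for phosphatidate, had -1.38 and -1.73 (-1.55 ± 0.19). In sphingolipid synthesis 11 of 24 fell and 6 rose. LCB1, a subunit of the first enzyme, had -1.64 and -1.81 (-1.73 ± 0.11), and ORM2, a repressor of that enzyme, rose to 1.33 and 1.51 (1.42 ± 0.09). Without the first and the second array, falls numbered 8 and 5 for phospholipids and 5 and 6 for sphingolipids, and rises 6 and 5, and 2 and 1.

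Drug export genes did not move as 1 group. Of 29 ABC transporters and regulators of the drug resistance network, 7 fell and 8 rose, with a median of 0.06. PDR5, the major drug exporter of the plasma membrane and a close relative of Snq2, had -2.39 and -2.42 (-2.40 ± 0.09, adjusted p = 0.000166). Parental cells had -0.09 and -0.24 for PDR5, and the difference of -2.24 ± 0.13 passed (adjusted p = 0.000679). PDR12, the exporter of weak organic acids, had -2.78 and -3.69 (-3.24 ± 0.23), against -0.91 and -1.20 in parental cells. The regulator PDR1 had -1.68 and -1.94 (-1.81 ± 0.10) and PDR3 had -0.17 and -0.16 (-0.17 ± 0.09, adjusted p = 0.161). YRR1, the other activator of SNQ2, had -0.97 and -0.79 (-0.88 ± 0.12), and YOR1, an exporter of oligomycin, had 0.12 and 0.00 (0.06 ± 0.08, adjusted p = 0.565). YBT1, a vacuolar bile acid transporter, rose to 1.14 and 0.84 (0.99 ± 0.10). Features of mutated genes can also pass. HIS3 (adjusted p = 0.00403), LYS2 (0.0166) and LEU2 (0.0284), mutated in every strain here, did, and URA3 (0.0677) did not. What these features detect was not tested. SNQ2 itself is replaced in this strain, and its feature had 0.22 and 0.03 (0.12 ± 0.09, adjusted p = 0.308), a ratio that says nothing of its level. Rises numbered 4 and 3 without the first and the second array.

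Among 16 exporters of the major facilitator family 4 rose and 3 fell. AZR1, which confers resistance to azoles and acids, had 2.63 and 2.57 (2.60 ± 0.14), against 0.05 and 0.20 in parental cells. QDR2, a multidrug exporter, had 1.48 and 1.47 (1.47 ± 0.08), below the 2.39 and 2.37 of parental cells. The polyamine exporter TPO2 had -2.56 and -2.54 (-2.55 ± 0.15), and AQR1, which exports acids and amino acids, had -1.50 and -1.51 (-1.51 ± 0.10). Both directions were present within this family, and rises numbered 2 and 3 without the first and the second array.

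**Figure D3:**
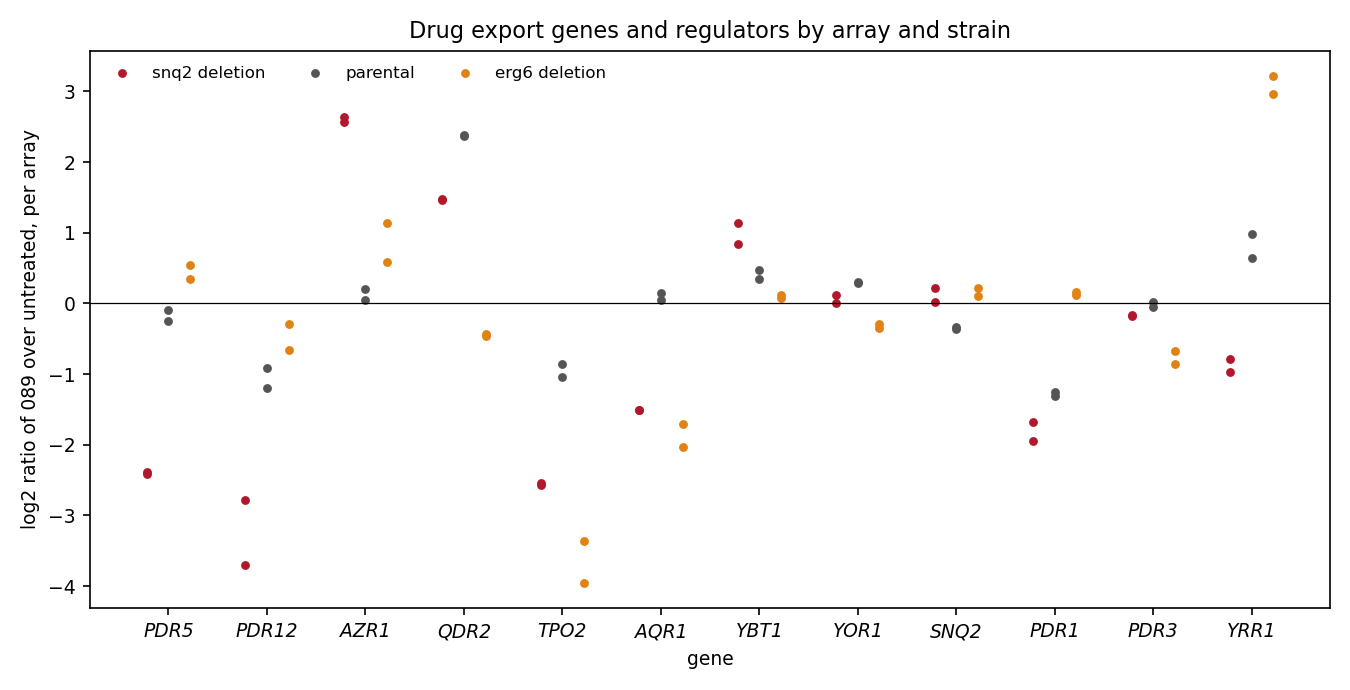
Log2 ratio of treated over untreated cells for named drug export genes and their regulators, with both arrays of each strain as points, the snq2 deletion strain first. PDR5 sits at -2.39 and -2.42 in snq2 deletion cells and near 0 in parental cells (-0.09 and -0.24), while AZR1 is at 2.63 and 2.57 against 0.05 and 0.20.

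Nitrogen, iron and phosphate genes had few shared directions. Of 43 genes for nitrogen source use and permeases, 19 fell and 7 rose. UGA1, an aminotransferase of the GABA pathway, had -2.73 and -2.80 (-2.76 ± 0.09), and MEP2, the ammonium permease and sensor, had -2.27 and -2.37 (-2.32 ± 0.10). ARO9 and ARO10, which break down aromatic amino acids, had 1.66 and 1.80, and 2.04 and 2.32, and GDH2, which releases ammonium from glutamate, had 1.38 and 1.55. Of 33 iron genes, 11 fell and 6 rose, and without the first and the second array 5 and 6 fell and 3 rose each time. ISU2, a scaffold for iron-sulfur clusters, had -2.46 and -3.19 (-2.82 ± 0.17). Of 28 phosphate and zinc genes, 13 fell and 8 rose. PHO84, the high-affinity phosphate transporter, had -2.45 and -3.35 (-2.90 ± 0.22), PHO81, the inhibitor of the kinase of its pathway, had -1.14 and -1.13 and PHO2, a transcription factor for it, had 1.06 and 1.35. Falls numbered 8 and 5 and rises 5 and 3 without the first and the second array, and rises 5 with either parental array left out.

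Of 21 cyclins and inhibitors, 8 rose and 1 fell, and 4 rose with either array left out. CLN3, the cyclin that starts the cycle, was the highest of the list, with 2.43 and 2.55 (2.49 ± 0.09), against 0.27 and 0.49 in parental cells. Of 11 histone genes, 3 rose and 1 fell. HTB2, for histone H2B, had 1.45 and 1.40 (1.42 ± 0.09), against -1.70 and -1.51 in parental cells, while its near-identical paralog HTB1 had -0.35 and -0.19 (-0.27 ± 0.11, adjusted p = 0.0852). Of 43 DNA replication genes, 10 rose and 7 fell, with MCM6, a subunit of the replicative helicase, at 1.26 on each array and TAH11, a licensing factor, at -1.22 and -1.09. Falls numbered 3 and 2 without the first and the second array, and 4 with either parental array left out.

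Of 30 mating and mating type genes, 6 rose and 4 fell, and without the first and the second array 3 and 4 rose and 3 and 2 fell. PRM5, a membrane protein induced by pheromone and by wall stress, was the lowest, with -2.91 and -3.06 (-2.99 ± 0.14). The a-factor gene MFA2 fell to -1.55 and -1.32, and STE3, the receptor of alpha cells for a-factor, rose to 0.86 and 0.90. MFA2 is normally expressed in a cells, and a ratio does not say whether its transcript was abundant here. Of 25 genes for meiosis and sporulation 7 rose and 3 fell, and of 24 for cytoplasmic mRNA decay 6 rose and 4 fell. Rises numbered 3 and 1 for meiosis without the first and the second array, and those for mRNA decay did not hold with either array left out, while its falls numbered 3 and 2.

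The 20 highest annotated genes ranged upward from 2.07 ± 0.09 for ETR1, a reductase of mitochondrial fatty acid synthesis. Besides genes already named, they included NCE103, carbonic anhydrase, at 2.92 and 3.00 (2.96 ± 0.08, adjusted p = 0.000113), and REC102, which helps form meiotic DNA breaks, at 2.50 and 3.25 (2.88 ± 0.19). MPC3, the mitochondrial pyruvate carrier subunit of respiring cells, had 2.17 and 2.55 (2.36 ± 0.12). PFS1, which acts in spore formation, had 2.23 and 2.21 (2.22 ± 0.14), and SMP3, a mannosyltransferase of membrane anchors, had 2.04 and 2.36 (2.20 ± 0.12). CYB2, lactate dehydrogenase, had 1.96 and 2.27, SPG1, a stationary phase gene, had 1.99 and 2.32, AYR1, a lipid reductase, had 2.02 and 2.15 and ALE1, a lysophospholipid acyltransferase, had 2.16 and 2.01.

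The 20 lowest annotated genes ended at -2.87 ± 0.15 for NEW1, a ribosome-bound ATPase, and reached -4.02 ± 0.58 for YBR085C-A, a protein of unknown function. The arrays of YBR085C-A, -2.97 and -5.07, were far apart. PFK27, a kinase that makes fructose-2,6-bisphosphate, the activator of glycolysis, had -2.88 and -3.06 (-2.97 ± 0.09). SVL3, a protein of the cell periphery, had -2.28 and -3.85 (-3.07 ± 0.39). YDR222W and YOR338W, proteins of unknown function, had -3.10 and -3.14, and -3.21 and -3.35. YOR302W, the short upstream reading frame that controls CPA1, had -3.35 and -3.37, and CPA1, which makes carbamoyl phosphate for arginine, had -1.81 and -1.65. Both features can detect 1 transcript, so their values are not independent. All 40 of these highest and lowest genes were past the threshold in each of 15 alternative fits.

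**Figure D4:**
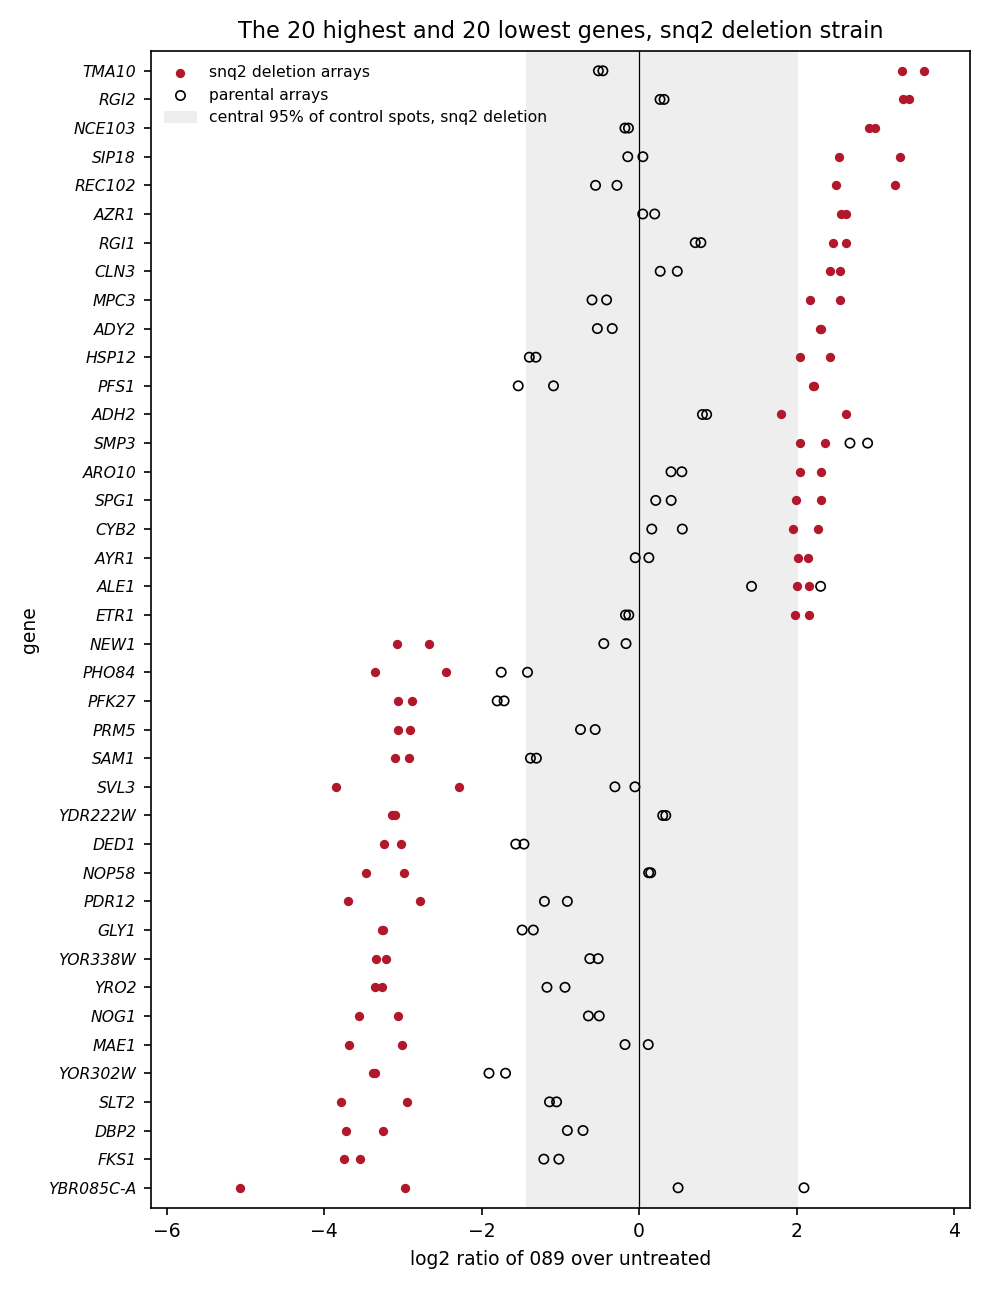
Log2 ratio of treated over untreated cells for the 20 highest and 20 lowest annotated genes of the snq2 deletion response, with 2 arrays of the snq2 deletion strain first and 2 of the parental strain for comparison. TMA10 is at 3.34 and 3.62 in snq2 deletion cells against -0.52 and -0.46 in parental cells, and YBR085C-A has its snq2 deletion arrays at -2.97 and -5.07.

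The comparison with the parental strain asks which changes differ where Snq2 is missing. The test of the difference between the responses put 2495 of 6362 genes past the threshold, 1042 higher in snq2 deletion cells (16.4%) and 1453 lower (22.8%). The control features of this difference spanned -1.94 to 1.43, with 217 genes past the test above that span and 113 below it. Of the empty features 8.53% and of the Blank features 25.7% passed the test of this difference. Of 1612 genes that rose in snq2 deletion cells, 906 (56.2%) also rose in parental cells, which is 52.2% of the parental rises, and 237 (14.7%) fell there. Over all genes, 27.3% rose and 26.7% fell in parental cells. Of the 1664 that fell, 804 (48.3%) also fell in parental cells, which is 47.3% of the parental falls, and 170 (10.2%) rose there. Counting only changes of at least 2-fold in both strains, 130 of 337 rises (38.6%, and 23.9% of the parental ones) and 138 of 603 falls (22.9%, and 31.4% of the parental ones) were shared, against 8.55% and 6.9% of all genes with such a rise or fall in parental cells.

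By list, ribosome assembly was lower than in parental cells for 32 of 49 small subunit and 31 of 54 large subunit genes, and cytosolic ribosomal proteins for 73 of 136. The medians of these lists in snq2 deletion cells were -0.83, -0.81 and -0.34, against 0.03, -0.08 and 0.25 in parental cells. NOG2 had 0.66 and 0.28 in parental cells, a difference of -3.12 ± 0.20 (adjusted p = 0.000773), and YEF3 had 0.51 and 0.33 there, a difference of -3.28 ± 0.19. With any 1 array of either strain left out, 16 to 29, 17 to 30 and 38 to 53 genes of these lists were lower. Higher than in parental cells were 27 of 39 respiratory genes (23 to 25 with 1 array left out), 23 of 34 stress genes (21 to 23), 18 of 25 glyoxylate genes (14 to 17), 11 of 15 glycogen genes (6 to 9) and 12 of 20 tricarboxylic acid cycle genes (9 to 12). The medians of the first 4 in snq2 deletion cells were 0.34, 0.76, 1.10 and 0.67, against -0.68, -0.83, -0.43 and -0.42 in parental cells. Of genes in the mitochondrial genome, 17 of 27 were lower in snq2 deletion cells (14 to 18), with medians of 0.49 in snq2 deletion and 1.23 in parental cells.

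Among the 10 highest differences were TMA10 (3.97 ± 0.24), ERG9 (3.63 ± 0.16), HSP12 (3.58 ± 0.20) and PFS1 (3.53 ± 0.19). OM14, a protein of the mitochondrial outer membrane, had 1.74 and 1.82 in snq2 deletion cells, against -1.63 and -1.62 in parental cells, a difference of 3.41 ± 0.12 (adjusted p = 0.000638). Among the 10 lowest were YBR085C-A (-5.32 ± 0.82), NOP58, a core snoRNP protein (-3.36 ± 0.19), MAE1 (-3.31 ± 0.25) and ATP8 (-3.13 ± 0.18). PDC1 had -1.52 on each snq2 deletion array, against 1.65 and 1.48 in parental cells, a difference of -3.09 ± 0.12. SKI3, a scaffold of the mRNA decay complex SKI, had 0.36 and 0.06 in snq2 deletion cells, near 0, against 3.96 and 3.26 in parental cells, with a difference of -3.40 ± 0.26. YOR029W, of unknown function, had 1.22 and 0.99 in snq2 deletion cells, against 4.54 and 4.43 in parental cells.

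**Figure D5:**
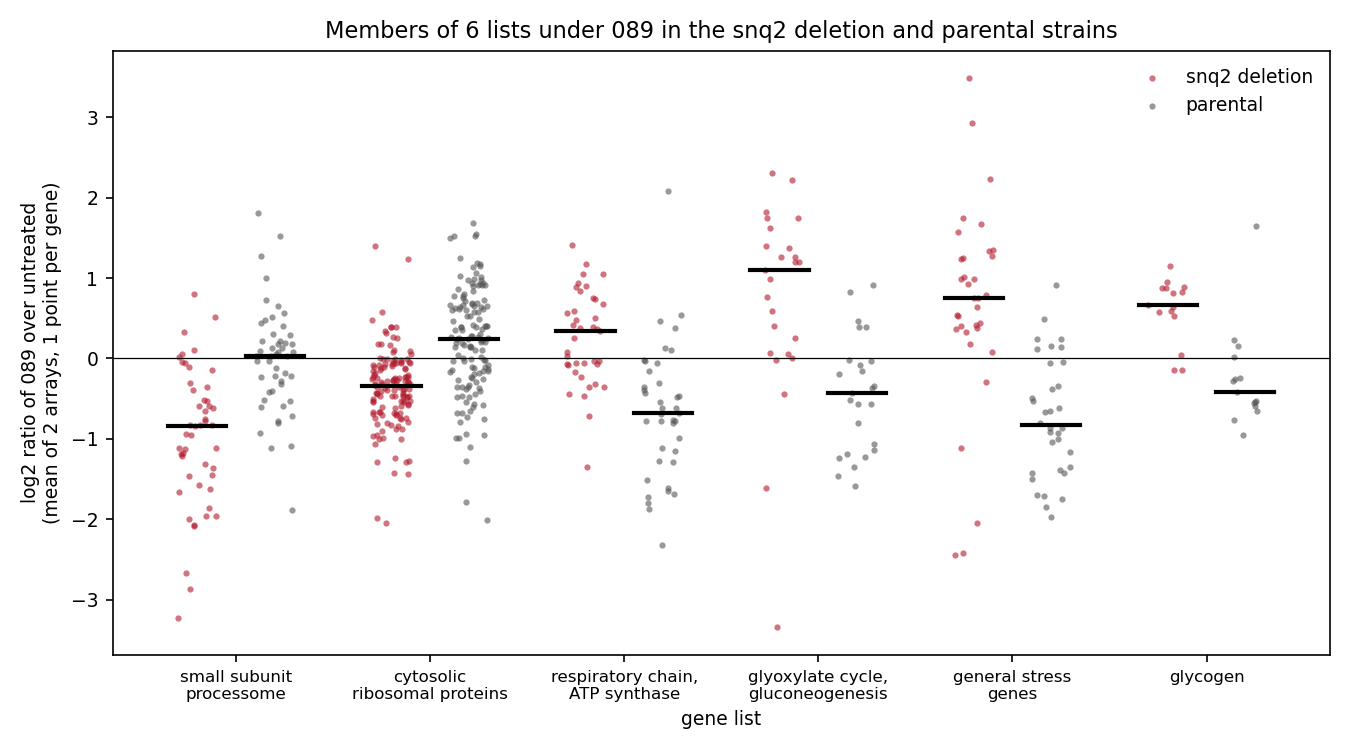
Log2 ratio of treated over untreated cells for the genes of selected lists in the snq2 deletion (first) and parental strains. Each point is the mean of a gene's arrays and each bar the list's median. The lists are small subunit processome, ribosomal protein, respiratory chain, glyoxylate, stress and glycogen genes. Glyoxylate genes have a median of 1.10 in snq2 deletion cells and -0.43 in parental cells, stress genes 0.76 and -0.83, and ribosomal proteins -0.34 and 0.25.

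ERG6 encodes a methyltransferase of ergosterol synthesis, and its loss makes the membrane more permeable. The difference between the snq2 and erg6 deletion responses passed for 3153 genes, 1689 higher in snq2 deletion cells (26.5%) and 1464 lower (23.0%). Of the snq2 deletion rises 646 (40.1%) were rises in erg6 deletion cells and 424 (26.3%) were falls, and of the snq2 deletion falls 542 (32.6%) were falls and 332 (20.0%) were rises there. The shared genes were 43.8% of the erg6 deletion rises and 27.1% of its falls. Over all genes, 23.2% rose and 31.5% fell in erg6 deletion cells, so the 32.6% of shared falls lies near the share of any gene. The empty features of the erg6 deletion arrays had medians of 2.47 and 1.76, well above the 0.80 and 0.23 of the snq2 deletion arrays, and their part in this difference was not tested. In the difference itself 42.1% of the empty and 63.9% of the Blank features passed, with medians of -1.44 and -0.02. The control features spanned -3.18 to 1.56, with 197 genes past the test above that span and 10 below it. Most ribosomal proteins differed, with 118 of 136 lower in snq2 deletion cells and medians of -0.34 in snq2 deletion and 1.03 in erg6 deletion cells. That gap is about the size of the empty features' median, while the median of all genes in this difference was 0.08. RPS28B had -1.92 and -2.17 in snq2 deletion cells, against 1.37 and 1.28 in erg6 deletion cells. Wall and surface proteins were lower for 32 of 50 and respiratory genes for 24 of 39. Among stress genes 8 of 34 were higher and 6 lower, with medians of 0.76 and 0.50 in snq2 and erg6 deletion cells. With any 1 array of either strain left out, the counts were 107 to 116 for ribosomal proteins, 24 to 30 for wall proteins and 15 to 21 for respiratory genes.

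FKS1 was the lowest in this difference, at -3.54 and -3.74 in snq2 deletion cells, against 0.55 and 0.44 in erg6 deletion cells (-4.13 ± 0.14, adjusted p = 0.000407). YRR1 followed, with -0.97 and -0.79 in snq2 deletion cells, against 3.22 and 2.96 in erg6 deletion cells. In the 10 highest differences the erg6 deletion arrays were far below 0. KTI12, which acts in tRNA modification, had -0.03 and -0.12 in snq2 deletion cells, against -4.52 and -4.72 in erg6 deletion cells, and RRG9, needed for respiratory growth, had 0.34 and 0.06, against -4.00 and -4.60. Of these 10 genes OPT2, a peptide transporter, passed the threshold in snq2 deletion cells (0.86 and 1.00, adjusted p = 0.0372), a call lost in 5 of 15 alternatives, among them leaving out either snq2 deletion or either parental array. The others did not pass, although PHO90, a phosphate transporter (0.59 and 0.51, adjusted p = 0.279), did in 4 alternatives. Leaving out either array of another strain gives the same fit of this response, so these alternatives are not all separate.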

How the data were processed

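Total RNA of treated (Cy5) and untreated (Cy3) cells was compared on 2-colour arrays, per the labels, which name a GenePix 4000B scanner. The authors deposited 1 log ratio per feature and array for 7045 features, taken here as log2. Steps not given in the sources used here include background correction, normalization and spot filters. All log2 values were used as deposited, with no further scaling. The 539 empty features and those named Blank were left out of the 6362 genes and served as controls. Gene names came from RefSeq (5826 matched, 536 did not, and the probe's own name was kept). limma 3.58.1 in R 4.3.3 fitted 1 mean per strain to the 6 arrays, with 3 residual and 2.45 prior degrees of freedom and Benjamini-Hochberg adjustment over all genes. The fit was also run on simulated independent noise in which few genes changed, a setting that cannot show how it treats the control features. Differences between strains are contrasts of that fit. Precision is limited by 2 arrays per strain.

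Named genes are the 20 highest and 20 lowest annotated genes past the threshold with both arrays on one side, up to 6 members of smallest p in each of 53 gene lists (any member in lists of 15 or fewer), the 10 highest and 10 lowest of each difference, and fixed drug export and marker genes. Members and lists were chosen with earlier results of these data known. Probe sequences were not analysed here, and cross-hybridisation of paralogs was not tested. Alternatives covered centring, scaling, quantile normalization, a replicate term, array weights, robust priors, a 1.5-fold minimum, annotated genes alone, the compared strains alone and leaving out each array. For the snq2 deletion response, leaving out either parental array gives the same fit, as does leaving out either erg6 deletion array. The 15 alternatives are therefore not all separate checks of that response. Figures were drawn with matplotlib 3.10.9.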

Additional observations from a re-analysis of the deposited data

Results flagged for a closer look

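Responses that differ between strains by the test of the difference itself were frequent, at 2495 genes between the snq2 deletion and parental strains and 3153 between the snq2 and erg6 deletion strains. Among the 40 highest and lowest genes of the snq2 deletion response, 5 stood out because both snq2 deletion arrays lay on one side of 0, both parental arrays lay on the other, and the parental response and the difference also passed. The difference, snq2 deletion minus parental, was 3.58 for HSP12, 3.53 for PFS1, 2.86 for MPC3, 2.74 for ADY2 and -3.44 for YDR222W.

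Features that name no gene also carried signal. Of the empty features 32.3% and of the Blank features 71.5% passed the test against 0 in the snq2 deletion response. The 539 empty features held 129 distinct values on the first array and 86 on the second, so many of them share a value. Their medians, 0.80 and 0.23, differed between the 2 arrays, while those of the Blank features were -0.34 and -0.14. Some Blank features with the same last number had similar values. Blank03-02, Blank06-02 and Blank07-02 had -2.09, -2.16 and -2.11 on the first array and -2.05, -2.18 and -2.07 on the second. Others did not, such as Blank05-02 at 1.15 and 1.35. What the Blank features hold was not tested.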

How the results depend on the processing

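Against a 1.5-fold minimum, 857 genes passed in the snq2 deletion response (339 higher, 518 lower, so 39.6% of the calls were higher against 49.2%), 702 in the difference from the parental response (306 higher, 396 lower) and 984 in the difference from the erg6 deletion response (462 higher, 522 lower). Leaving out 1 array at a time gave 1672 to 3656 genes for the snq2 deletion response (791 to 1754 higher, 881 to 1902 lower), 1202 to 2889 for the parental difference (512 to 1212 higher, 675 to 1677 lower) and 1952 to 3095 for the erg6 deletion difference (1041 to 1667 higher, 911 to 1428 lower). For the response these were 2105 without the first and 1672 without the second snq2 deletion array, and the lone array was then assumed to vary like the others. PPT1 turned from -0.17 to 0.69 (adjusted p = 0.0406) without the second snq2 deletion array, and was -1.04 without the first, since its arrays lie on different sides of 0. Of the 74 list counts of 4 or more, 47 moved by over 1.5 times with 1 snq2 deletion array left out, 66 did against a 1.5-fold minimum and 3 did with 1 array of another strain left out. Counts of 3 or fewer often moved too. Among the remaining alternatives 1 list count of 4 or more moved so far, the falls in endoplasmic reticulum folding, and centring, scaling, quantile normalization, array weights, robust priors, annotated genes alone and the compared strains alone gave 3093 to 3709 genes for the response. Of 358 named genes past the threshold, 233 were past it in all 15 alternatives. Replicate numbers did not pair the arrays (correlations of deviations -0.04, 0.00 and 0.09), and a replicate block gave 3103 genes. A planned description of promoter motifs was not run. Signal over background is not analysed here, so dim features cannot be told from bright ones.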

Other observations

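TMA10 (3.34 and 3.62) and REC102 (2.50 and 3.25), which are among the 20 highest genes of the snq2 deletion response, lie near each other on chromosome XII. NMA1 and a tRNA gene stand between them in the RefSeq annotation of assembly R64. NMA1, a nicotinamide nucleotide adenylyltransferase named here for its position after its values were seen, had -0.58 and -1.70 in snq2 deletion cells (-1.14 ± 0.26, adjusted p = 0.0152). It lay on the other side of 0 from both neighbours on each array.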
